A study of Homo sapiens with 3 samples.

Results

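Cells with few transcripts of mitotic genes were compared between irradiated (IR) and non-irradiated (NC) populations of the colorectal cancer line HCT116. A cell was taken as mitotic-gene-low when MKI67, TOP2A, CENPF, CCNB1, HMMR and TPX2 together gave at most 3 UMIs, the molecular tags that count individual transcripts. Cells also needed at least 200 detected genes, under 10% mitochondrial UMIs and 5000 to 20000 gene UMIs. The antibody hashtag tag8 marked irradiated cells (at least 3160 counts and at least 80% of the hashtag counts of a droplet), and tag6 marked non-irradiated cells (at least 374 counts and at least 80%). These limits left 956 irradiated and 73 non-irradiated cells, 1029 of the 30907 cell barcodes of the series. All came from the library Mix2, in which 10000 irradiated, 1000 non-irradiated and 1000 repopulated cells were pooled for droplet sequencing. Every population was HCT116 with the genotype given as p53plus. Irradiated cells had received 8 Gy, were isolated as giant cells on day 5 or 8 and were then kept in culture to day 10 or 11. Non-irradiated cells had received 0 Gy. The study calls the giant cells that outlive the dose radiation-tolerant persister (RTP) cells and describes them as budding off proliferating progeny, so the irradiated population can hold both.

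DNA damage stabilises p53, which induces CDKN1A (p21), an inhibitor of cyclin-dependent kinases. Kinase inhibition keeps the RB family bound to E2F factors and represses replication genes, and the related DREAM complex represses genes of G2 and mitosis. A low content of mitotic transcripts therefore does not by itself separate an arrested cell from a cycling cell in G1 or early S phase.

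Each population stands for 1 sample. The differences below were therefore not tested, and cells of 1 culture are not replicates of a condition. Summed UMIs are given as CPM, the UMIs of a gene per 1000000 gene UMIs of its population. Ratios are irradiated over non-irradiated, and brackets hold exact 95% intervals, which reflect counting error and nothing else. Intervals of log2 differences between comparisons are normal approximations from the counts instead. The irradiated cells held 10246634 gene UMIs, a median of 10391 per cell, and the non-irradiated cells 505223, a median of 6371. Median mitochondrial shares were 5.17% and 6.40%. Tag8 made up a median of 99.8% of hashtag counts in irradiated cells and tag6 90.8% in non-irradiated cells. Of the colorectal epithelial markers, EPCAM, KRT8, KRT18 and CDH1 were all measured, whereas no fibroblast, immune, endothelial or erythroid marker was, and each of those 4 lists summed to at most 5.94 CPM in either population.

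The mitotic limit split the populations unequally. In the same UMI window 956 of 1904 irradiated cells over the tag8 limit were mitotic-gene-low (50.2%, 47.9 to 52.5). Of the non-irradiated cells 73 of 698 were (10.5%, 8.29 to 13). Irradiated cells were deeper, which makes a fixed limit stricter for them. After each cell was thinned to 5000 UMIs, the shares with at most 1 mitotic UMI were 50.9% and 5.59%. The window also left out 162 irradiated cells and 1 non-irradiated cell with more than 20000 UMIs. Cells with tag8 under its limit but at least 80% of hashtag counts, here called weakly tagged irradiated cells, are not part of these shares. In the same window 854 of 5330 such cells (16%) were mitotic-gene-low. The share of 50.2% therefore describes strongly tagged irradiated cells only.

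The 6 genes of the limit are given as a description only, since they chose the cells. MKI67 stood at 14.2 CPM in irradiated and 57.4 CPM in non-irradiated mitotic-gene-low cells, TOP2A at 23.7 and 65.3, CENPF at 17.8 and 65.3, and HMMR at 5.08 and 21.8. TPX2 stood at 25.4 and 43.5 CPM and CCNB1 at 22.3 and 31.7 CPM. A limit of 3 UMIs in deeper cells gives lower CPM, so these values are not read as a difference. Irradiated cells just inside it, with 3 mitotic UMIs (128 cells), held 1152 CPM of CDKN1A, and those just outside, with 4 (110 cells), held 1006. For non-irradiated cells these levels were 260 CPM in 26 cells and 168 CPM in 32 cells. Mitotic-gene-low cells up to 500 tag8 counts over the hashtag limit (63 cells) held 1361 CPM of CDKN1A, and those up to 500 counts under it (83 cells) held 1176 CPM. On the tag6 side only 1 mitotic-gene-low cell lay under the limit.

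Of 4922 measured genes, those with a mean of at least 20 CPM over both populations, 689 (14%) were at least 1.5-fold higher in irradiated cells and 1062 (21.6%) at least 1.5-fold lower. The interval also excluded equality for 519 of the former (10.5%) and 893 of the latter (18.1%). Without the mitotic limit, over all cells of the UMI window, 401 of 5141 genes (7.8%) were higher and 806 (15.7%) lower. The median log2 ratio over all measured genes was −0.10. With TMM, another scaling of the totals, 979 genes were higher and 741 lower, so the excess of lower genes depended on the scaling. The shares of 14% higher and 21.6% lower are the background for the counts of every gene list below.

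In mitotic-gene-low cells CDKN1A reached 1305 CPM after irradiation and 323 CPM without it, 4.05 times as much (3.47 to 4.75). The gene (ENSG00000124762) lies on chromosome 6 at 36676460 to 36687337 of GRCh38. Its level in droplets without cells, which shows the free RNA of the library, was 402 CPM. The size varied with the limits on cells, which changed both populations. The ratio was 1.61 between 861 irradiated and 6 non-irradiated cells with a 95% tag share, 1.95 between 510 and 12 cells of 8000 to 14000 UMIs, and 17.5 between 462 and 8 cells with under 5% mitochondrial UMIs. Among 31 measured p53 targets, 22 were at least 1.5-fold higher, set against 14% of all measured genes, and 0 were 1.5-fold lower. The median of the log2 ratios was 1.06 in this list and −0.10 over all measured genes. At a 95% tag share the list median was 0.27, inside 1.5-fold, and between cells with 0 mitotic UMIs it was 0.64. A further 13 listed targets lay under the expression limit. A gene can pass that limit through its higher population alone, so the counts for each list describe its measured members only. TP53I3, an oxidoreductase linked to p53-dependent death, was 7.68-fold higher (4.65 to 13.7), from 29.7 to 228 CPM. TP53INP1, a p53 cofactor of the stress response, gave 52.0 against 3.96 CPM from 2 non-irradiated UMIs.

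Both arms of the p53 response were represented. On the death side, BBC3 (PUMA) stood at 82.5 and 19.8 CPM, a ratio of 4.17 (2.25 to 8.72), and BAX at 130 and 53.4 CPM, a ratio of 2.44 (1.67 to 3.71). Of the 10 measured BCL2 family genes 5 were higher and 1 lower, and the higher ones included the protective BCL2L1 (BCL-XL), 1.75-fold (1.18 to 2.72), beside the killers BIK, BBC3, BAX and BID. At a 95% tag share BAX (0.989) and BCL2L1 (0.883) were on the other side of equality. On the side of arrest and secretion, the polo-like kinase PLK2 was 3.19-fold higher, and the stress cytokine GDF15 2.57-fold higher (2.27 to 2.91), at 1362 and 530 CPM. The negative regulators of p53 were closer to the non-irradiated level. MDM2, its ubiquitin ligase, stood at 63.5 and 45.5 CPM (1.40) and the phosphatase PPM1D at 33.6 and 23.8 CPM (1.41), both under the 1.5-fold limit.

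**Figure D1:**
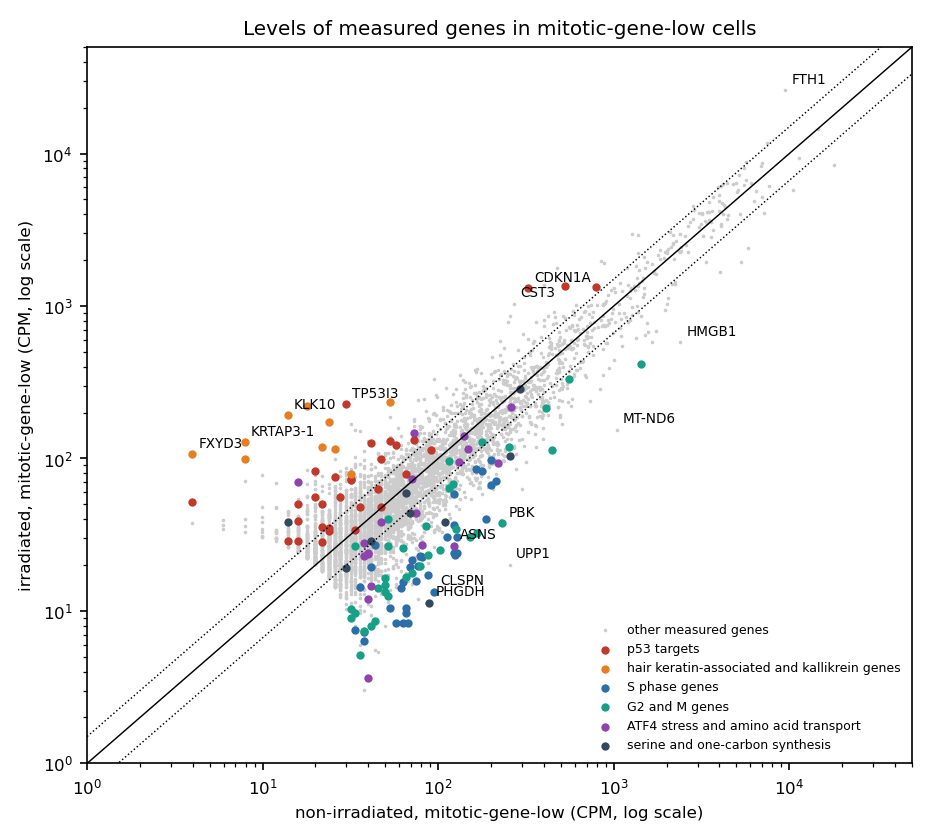
Level of each measured gene in non-irradiated (x axis) and irradiated (y axis) mitotic-gene-low cells, in CPM of summed UMIs on log scales; genes with at least 1 UMI in both populations are shown. Coloured points are members of 6 gene lists, the solid line marks equal levels and the dotted lines 1.5-fold. CDKN1A lies at 323 and 1305 CPM, above the lines, and the S phase and G2 and M genes lie mostly below them.

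The highest ratios belonged largely to genes known from hair, skin and other epithelia. Among 2498 genes with a mean of at least 50 CPM, the 10 highest were FXYD3, KRTAP3-1, KLK10, KLK5, CPA4, TP53I3, KRTAP2-3, LCN2, FAM89B and CRIP2. FXYD3, a regulator of the sodium pump, stood at 107 CPM in irradiated cells and rested on 2 UMIs in non-irradiated cells (27.0, 7.46 to 223). KRTAP3-1, a hair keratin-associated protein, stood at 128 and 7.92 CPM (16.2, 6.32 to 59.6). KLK10, a secreted serine protease of the kallikrein family, stood at 193 and 13.9 CPM (13.9, 6.74 to 34.6). Non-irradiated levels of these genes rested on 2 to 16 UMIs, which gives the wide intervals. All 10 measured members of this group, KLK5 to KLK8 and LCN2 among them, were at least 1.5-fold higher, where 14% of all measured genes were. Their median log2 ratio was 3.25, and the other 9 listed members lay under the expression limit. The list was chosen with earlier results of these data known. FXYD3, KRTAP3-1, KLK10, KLK5 and CPA4 are among the members that passed the expression limit only through their irradiated level. The count therefore describes the members and lends no support. Between cells with 0 mitotic UMIs LCN2 was at 0.918. The level of KRTAP2-3 is uncertain, because near-identical copies of this gene can share its reads. In droplets without cells FXYD3 stood at 35.2, KRTAP3-1 at 46.4 and KLK10 at 49.9 CPM, each above the level in non-irradiated cells. The part of free RNA in the non-irradiated values was not tested.

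CST3 (ENSG00000101439, chromosome 20, 23626706 to 23638473) encodes cystatin C, a secreted inhibitor of lysosomal cysteine proteases. It stood at 1037 CPM in irradiated and 271 CPM in non-irradiated mitotic-gene-low cells, a ratio of 3.83 (3.23 to 4.56). Free RNA held 637 CPM of it. Under 5% mitochondrial UMIs the ratio was 7.84, and GRN was at 0.833 there. Of 28 measured cystatins, cathepsins and other lysosomal genes, 11 were higher and 0 lower, and the median log2 ratio was 0.28. LGMN (legumain) was 2.65-fold higher, GRN (progranulin) 2.57-fold and PSAP, the precursor of sphingolipid activators, 2.08-fold. The proteases themselves diverged. Cathepsin B (CTSB) stood at 85.4 and 51.5 CPM (1.66), cathepsin D (CTSD) at 82.3 and 71.3 CPM (1.15) and cathepsin L (CTSL) at 31.1 and 37.6 CPM (0.828).

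CST3 belongs to a panel that the study drew from separate SMART-seq libraries of giant cells, of which 4 genes were measured. The direction of such a panel is not independent of the study's own choice. SELENOM, a selenoprotein of the endoplasmic reticulum, was 3.52-fold higher (2.65 to 4.78), KRT19 1.61-fold, and RPS12 gave 1.41. The copies of the panels read here held 5 genes of the first and 27 of the second, which covers each panel only in part. Of the 25 measured genes of this second, budding panel 13 were higher and 1, MT1E, was lower (0.631). Over all measured genes 14% were higher and 21.6% lower. The median log2 ratio was 0.63. ASS1, which makes argininosuccinate, stood at 243 and 77.2 CPM (3.14, 2.29 to 4.43), and SNCG (gamma-synuclein) at 216 and 107 CPM (2.02, 1.54 to 2.70). The ESCRT machinery that severs membranes had a median of −0.03 over 25 genes, with CHMP3 at 2.05 and CEP55, which recruits ESCRT in cytokinesis, at 0.271 (0.163 to 0.476).

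Interferon-stimulated genes are switched on by factors that bind the interferon-stimulated response element. In irradiated mitotic-gene-low cells ISG15, a ubiquitin-like modifier, was 3.44-fold higher (3.0 to 3.97), at 1376 and 400 CPM. IFI6 gave 130 against 39.6 CPM (3.28, 2.12 to 5.39), and 25% of its 20 non-irradiated UMIs lay in 1 cell. Between cells with 0 mitotic UMIs its ratio was 0.867. BST2 and HERC5 were 6.2-fold and 6.66-fold higher from 3 non-irradiated UMIs each. Of 13 measured members among 50 listed 7 were higher and 0 lower, with a median log2 ratio of 0.59. ADAR (0.952) and EIF2AK2 (0.878), the RNA-editing and RNA-sensing enzymes, were near equality. Promoters of ISG15 and IFI6 from RefSeq (GRCh38.p14) are shown because they carry the element, GAAA and GAAA with any 2 bases between them, on either strand and in capitals. The stretches lie at chr1:1013365-1013424 (plus strand) and chr1:27672251-27672310 (minus strand), and are written 5′ to 3′ along the gene.
ISG15: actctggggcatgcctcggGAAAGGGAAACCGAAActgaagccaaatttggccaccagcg
IFI6: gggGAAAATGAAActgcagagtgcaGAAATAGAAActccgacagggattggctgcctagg
In windows from 250 bases before to 50 after the start, 7 of 11 measured members with a promoter sequence held the letters, and 3.65% of all 27305 promoters did.

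Of 14 measured members of the class I antigen presentation list 5 were higher, 3 were lower and 6 lay within 1.5-fold. The lower members were about the share over all measured genes (21.6%). The heavy chain HLA-B (466 and 202 CPM, 2.31, 1.90 to 2.84), the light chain B2M (857 and 424 CPM, 2.02, 1.77 to 2.33) and the peptide transporter TAP1 (2.02) were among the higher ones, although TAP1 was at 0.752 with a 95% tag share. The lower members were the chaperones PDIA3 (0.463), CALR (0.601) and CANX (0.637). B2M has a further bearing, because the hashtag antibodies bind B2M and ATP1B3, and the tag8 limit selects strongly stained cells. Cells just over that limit held 787 CPM of B2M and cells just under it 749 CPM. ATP1B3 itself stood at 132 and 170 CPM (0.773). The part of this selection in the B2M difference was not tested.

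Genes of the cell cycle outside the 6 of the limit were mostly lower in irradiated cells. Of 55 listed S phase genes 35 were measured, and all 35 were at least 1.5-fold lower in irradiated mitotic-gene-low cells, where 21.6% of all measured genes were. Their median log2 ratio was −2.07. The fixed limit is stricter for the deeper irradiated cells. With at most 1 mitotic UMI after thinning to equal depth (970 and 39 cells) the median was −1.57. CLSPN (claspin), a mediator of the replication checkpoint, stood at 13.4 CPM in irradiated and 95 CPM in non-irradiated cells, a ratio of 0.141 (0.101 to 0.200). MCM3, a subunit of the replicative helicase, stood at 23.9 and 129 CPM (0.186, 0.141 to 0.248), and GINS2, its partner at the fork, at 23.3 and 125 CPM (0.187, 0.141 to 0.251), although GINS2 was at 1.29 between cells of 8000 to 14000 UMIs. The lowest member was CHAF1A, a histone chaperone of the fork, at 0.125.

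Of 35 measured G2 and M genes among 78 listed, 31 were lower and 0 higher, with a median of −1.79. With at most 1 mitotic UMI after thinning it was −1.41, and the value nearest 0 under any alternative was −0.87. How much of these differences came from the unequal limit was not tested. PBK, a mitotic kinase, stood at 37.8 and 232 CPM (0.163, 0.132 to 0.202), and CDC20, the activator of the anaphase-promoting complex, at 32.4 and 166 CPM (0.195, 0.153 to 0.251). CDK1, the mitotic kinase that cyclin B activates, stood at 23.1 and 87.1 CPM (0.266). The exceptions within 1.5-fold were CKS2, CDC25B, CKAP2 and BUB3.

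Stretches of promoters are shown for members of both groups, since E2F sites (TTTCCCGC or TTTGGCGC) and the cell cycle homology region (TTTGAA) are the textbook elements through which they are repressed outside the cycle. Capitals mark matches on either strand. The stretches are chr6:52284883-52284942 (minus strand) for MCM3, chr16:85688955-85689014 (minus) for GINS2, chr10:94545728-94545787 (plus) for HELLS, chr1:43358889-43358948 (plus) for CDC20 and chr10:60778143-60778202 (plus) for CDK1.
MCM3: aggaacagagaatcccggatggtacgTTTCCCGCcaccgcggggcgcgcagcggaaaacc
GINS2: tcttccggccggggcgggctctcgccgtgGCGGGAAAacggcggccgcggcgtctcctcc
HELLS: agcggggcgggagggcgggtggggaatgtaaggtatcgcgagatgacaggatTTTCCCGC
CDC20: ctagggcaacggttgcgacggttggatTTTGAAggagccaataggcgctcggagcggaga
CDK1: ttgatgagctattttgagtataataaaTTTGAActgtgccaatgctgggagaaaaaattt
The E2F letters occurred in 11 of 30 S phase promoters, 2 of 30 G2 and M promoters and 2.31% of all promoters. The letters TTTGAA occurred in 16 of 30 G2 and M promoters, 1 of 30 S phase promoters and 15.4% of all. These matches describe the letters and were not tested as sites.

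Cells in S phase made up more of the non-irradiated side. At most 3 UMIs over RRM2, CLSPN, DTL, CDC6, CDC45 and MCM10 were found in 930 of 956 irradiated cells (97.3%) and 56 of 73 non-irradiated cells (76.7%). Between these 930 and 56 cells the S phase list had a median log2 ratio of −2.04, the G2 and M list −1.77 and the p53 list 1.0. In that comparison CDKN1A gave 3.70, CST3 3.64 and PHGDH 0.108. This limit of 3 UMIs was also stricter for the deeper irradiated cells, and CLSPN and CDC6 belong both to it and to the S phase list. The S phase median is therefore no measure of what remains without S phase cells. How much of these differences lay in cycling non-irradiated cells was not tested.

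Transcripts of several chromatin proteins were also lower. HMGB1, a chromatin protein also released as an alarm signal, stood at 582 CPM in irradiated and 2385 CPM in non-irradiated cells (0.244, 0.230 to 0.260), and HMGB2 at 39.2 and 228 CPM (0.172, 0.140 to 0.214). The nucleosome-binding HMGN2 was at 0.329, the variant histone H2AFZ at 0.353 and HMGA2 at 0.315. Of 23 measured lamins, HMG proteins and histones 12 were lower and 3 higher, namely HIST1H2AC, HIST1H2BD and H2AFJ. LMNA, the A-type lamin, stood at 362 and 323 CPM (1.12). Repair genes were also on the lower side. BRCA1 stood at 5.56 and 43.5 CPM (0.128, 0.0769 to 0.219), the checkpoint kinase CHEK1 at 11.4 and 51.5 CPM (0.222), and the end-joining pair XRCC6 and XRCC5 (Ku70 and Ku80) at 0.501 and 0.589. Homologous recombination had 6 of 7 genes lower (median −0.90) and end joining 6 of 10 (median −0.69).

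Cyclins and their inhibitors did not move as a block. Besides CDKN1A, the G1 cyclin CCND1 was higher, at 916 and 459 CPM (2.00, 1.75 to 2.28). The kinase CDK4 stood at 0.597, the S phase cyclin CCNE1 at 0.621 (0.402 to 1.01) and CDKN2A (p16) at 25.3 and 47.5 CPM (0.532, 0.350 to 0.846). Of 14 measured members 2 were higher, about the share over all measured genes (14%), and 6 were lower, where 21.6% of all were.

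**Figure D2:**
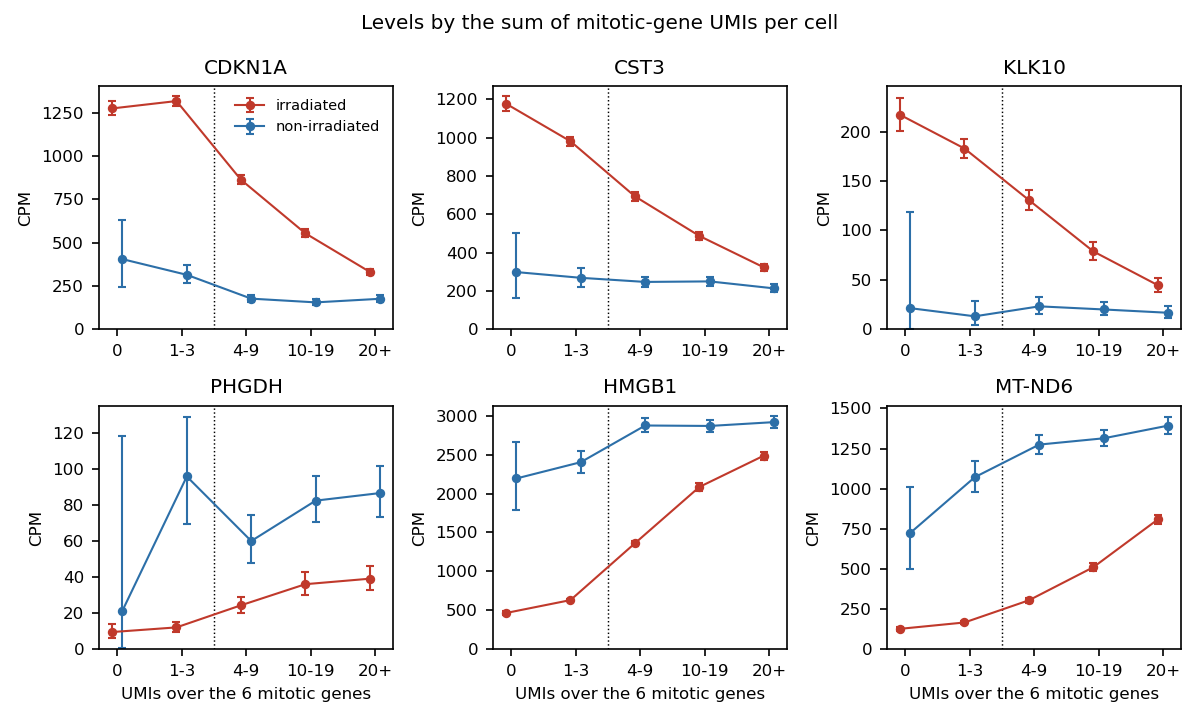
Level (y axis, CPM) of 6 genes in irradiated and non-irradiated cells of the UMI window, grouped by the UMIs over the 6 mitotic genes in a cell (x axis). Points are summed UMIs, bars exact 95% Poisson intervals, and the dotted line marks the mitotic-gene-low limit. In irradiated cells CDKN1A goes from 1275 CPM at 0 mitotic UMIs to 331 CPM at 20 or more, while in non-irradiated cells it lies between 155 and 405 CPM.

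Several levels were graded with the mitotic sum. CDKN1A stood at 1275, 1317, 863, 554 and 331 CPM in irradiated cells with 0, 1 to 3, 4 to 9, 10 to 19 and at least 20 mitotic UMIs. In non-irradiated cells the same groups held 405, 314, 177, 155 and 176 CPM, so irradiated cells were higher in each group. CST3 stood at 1177, 981, 693, 487 and 323 CPM in irradiated cells and at 298, 268, 247, 250 and 213 CPM in non-irradiated cells. The 0 group of the non-irradiated side held 8 cells. HMGB1 went the other way, from 464 to 2488 CPM across the groups in irradiated cells and from 2195 to 2920 CPM in non-irradiated cells. For these 3 genes the range in CPM was wider in irradiated cells. GDF15 fell across the groups in both populations, from 1442 to 473 CPM in irradiated and from 1023 to 276 CPM in non-irradiated cells. PHGDH stood at 9.48, 12.1, 24.3, 36.1 and 39.2 CPM in irradiated cells. In non-irradiated cells it showed no steady course, at 21.3, 96.0, 60.1, 82.6 and 86.8 CPM, and the 21.3 had an interval of 0.539 to 119.

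PHGDH (ENSG00000092621, chromosome 1, 119648411 to 119744218) encodes the first enzyme of serine synthesis from glycolysis. It stood at 11.3 CPM in irradiated and 89.1 CPM in non-irradiated mitotic-gene-low cells, a ratio of 0.127 (0.0894 to 0.184). Between the 307 irradiated and 8 non-irradiated cells with 0 mitotic UMIs the ratio was 0.445. The non-irradiated level there was 21.3 CPM with an interval of 0.539 to 119. With an 80% tag share but no count limits the ratio was 0.220. PSAT1, the next enzyme of the route, stood at 38.3 and 109 CPM (0.351, 0.264 to 0.475), and MTHFD2, the mitochondrial folate enzyme, at 0.407 (0.339 to 0.493). Of 9 measured serine and one-carbon genes 5 were lower and 1, MTHFD2L, was higher. GCSH and MTHFD1L, of the glycine cleavage system and of mitochondrial folate, stood at 0.981 and 0.904.

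PHGDH, PSAT1 and MTHFD2 are known to be induced by ATF4, the transcription factor of amino acid stress. Of 19 measured ATF4 stress and amino acid transport genes 10 were lower and 2 higher, with a median log2 ratio of −0.72. SLC7A11, the cystine importer, stood at 3.61 and 39.6 CPM (0.0912, 0.0516 to 0.166), and ASNS, asparagine synthetase, at 26.8 and 123 CPM (0.219, 0.165 to 0.293). TRIB3, a pseudokinase feedback target, was at 0.301. The glutamine carrier SLC1A5 was at 0.429, whereas the leucine carrier SLC7A5 and SLC38A2 were at 1.02 and 0.999. ATF3 (4.43, 2.24 to 10.3) and DDIT4 (1.99, 1.44 to 2.84) were the higher members, and p53 can also induce both. ATF4 itself stood at 95.2 and 131 CPM (0.728, 0.567 to 0.949). Without the non-irradiated cell described below for UPP1, the median of this list was −0.47.

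The promoter stretch of ASNS at chr7:97872443-97872502 (minus strand) is shown with the C/EBP-ATF response element, TGATGNAA, in capitals.
ASNS: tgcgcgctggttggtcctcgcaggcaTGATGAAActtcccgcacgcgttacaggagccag
The letters occurred in 5 of 17 promoters of the list and in 3.67% of all promoters.

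Of the 20 cytosolic aminoacyl-tRNA synthetases, which charge tRNAs with amino acids, 7 were lower and 1, QARS, was higher at 1.52 (0.895 to 2.80). The lowest were MARS (0.347, 0.233 to 0.536), YARS (0.447), GARS (0.503) and CARS (0.513), and the list had a median of −0.42. Nucleolar genes of ribosome assembly had 9 of 30 lower, set against 21.6% of all measured genes, and 0 higher (median −0.41). NOP58 stood at 0.424, but at 1.49 between cells with 0 mitotic UMIs and 1.03 between cells of 8000 to 14000 UMIs. NCL (nucleolin) stood at 672 and 1568 CPM (0.429). Ribosomal protein genes had a median of 0.20 over 82 genes, 5 of them higher and 0 lower. Of 23 measured immediate early and heat shock genes 11 were lower, where 21.6% of all measured genes were, and 3 were higher. Among the chaperones HSP90AB1 stood at 1943 and 5307 CPM (0.366, 0.352 to 0.381), HSPA5 (BiP) at 158 and 396 CPM (0.399) and HSPD1, the mitochondrial chaperonin, at 0.475. HSPB1 (1.03) and DNAJB1 (1.29) lay within 1.5-fold. Among the immediate early genes FOSB (0.211) and FOS (0.347) were lower, while JUND (2.35) and JUN (2.08) were higher.

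MT-ND6, the complex I subunit encoded on the light strand of mitochondrial DNA, stood at 154 CPM in irradiated and 1039 CPM in non-irradiated cells (0.149, 0.135 to 0.164). Of 13 mitochondrially encoded genes 6 were lower and 0 higher, with a median of −0.43. MT-ND2 (0.412) and MT-ATP8 (0.381) followed, whereas MT-CO2 (0.991) and MT-ND5 (1.01) were near equality. In irradiated cells MT-ND6 stood at 126, 166, 304, 510 and 808 CPM over the 5 groups of the mitotic sum, and in non-irradiated cells at 724, 1071, 1275, 1314 and 1393 CPM. Free RNA held 915 CPM.

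UPP1, uridine phosphorylase, had the lowest ratio of the genes over 50 CPM, 0.0787, but 101 of its 129 non-irradiated UMIs (78.3%) lay in 1 cell. That cell held 5797 UMIs and 0 mitotic UMIs, and the next highest UPP1 count of any cell in Mix2 was 29. Without it the ratio was 0.359. Among 4706 measured genes with at least 10 non-irradiated UMIs, 47 had at least 25% of them in 1 cell, and 5 of the 47 in that cell.

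Iron, sugar and lipid genes differed by member. FTH1, the ferritin heavy chain, stood at 25994 and 9499 CPM (2.74, 2.66 to 2.82). The antioxidant NQO1 stood at 355 and 683 CPM (0.520). Of 19 NRF2 and ferritin genes 1 was higher and 4 were lower, the latter about the share over all measured genes (21.6%). The glucose transporter SLC2A1 stood at 152 and 35.6 CPM (4.28, 2.70 to 7.24), with BNIP3L (3.13) and ALDOC (3.48) also higher. The glycolytic ENO1 (0.652) and LDHB (0.662) were lower, and the 22 measured genes had a median of 0.15. Of 12 cholesterol synthesis genes 7 were lower, ACAT2 (0.383) and FDPS (0.390) the most, and 1, TM7SF2, was higher (1.90). The 3 measured metallothioneins had a median of −0.17.

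Epithelial genes were more often higher than lower. Of 22 measured keratin and adhesion genes 12 were higher, 3 lower and 7 within 1.5-fold, with a median of 0.60. Over all measured genes 14% were higher and 21.6% lower. Between cells with 0 mitotic UMIs the list median was 0.22. Of the colorectal epithelial markers KRT8 (1.49) and CDH1 (1.28) lay within 1.5-fold. The epithelial transcription factor ELF3 stood at 103 and 33.6 CPM (3.06, 1.90 to 5.27) and the simple keratin KRT18 at 2905 and 1372 CPM (2.12). EPCAM, by contrast, stood at 221 and 362 CPM (0.611, 0.525 to 0.714), and at 1.03 with a 95% tag share. Among S100 proteins and annexins S100A4 was 2.16-fold higher, and ANXA1 (0.454), ANXA5 (0.564) and ANXA3 (0.612) were lower. The EGF receptor ligands parted, with AREG (amphiregulin) at 791 and 360 CPM (2.20, 1.90 to 2.56) and EREG (epiregulin) at 85.9 and 277 CPM (0.310, 0.259 to 0.373). Secreted senescence factors had 5 of 13 genes higher and 1 lower (median 0.30), the cytokine IL18 at 2.23 and the chemokine CXCL16 at 2.49. The 8 measured YAP targets had a median of −0.34, which was 0.08 without the cell that held most UPP1 UMIs.

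**Figure D3:**
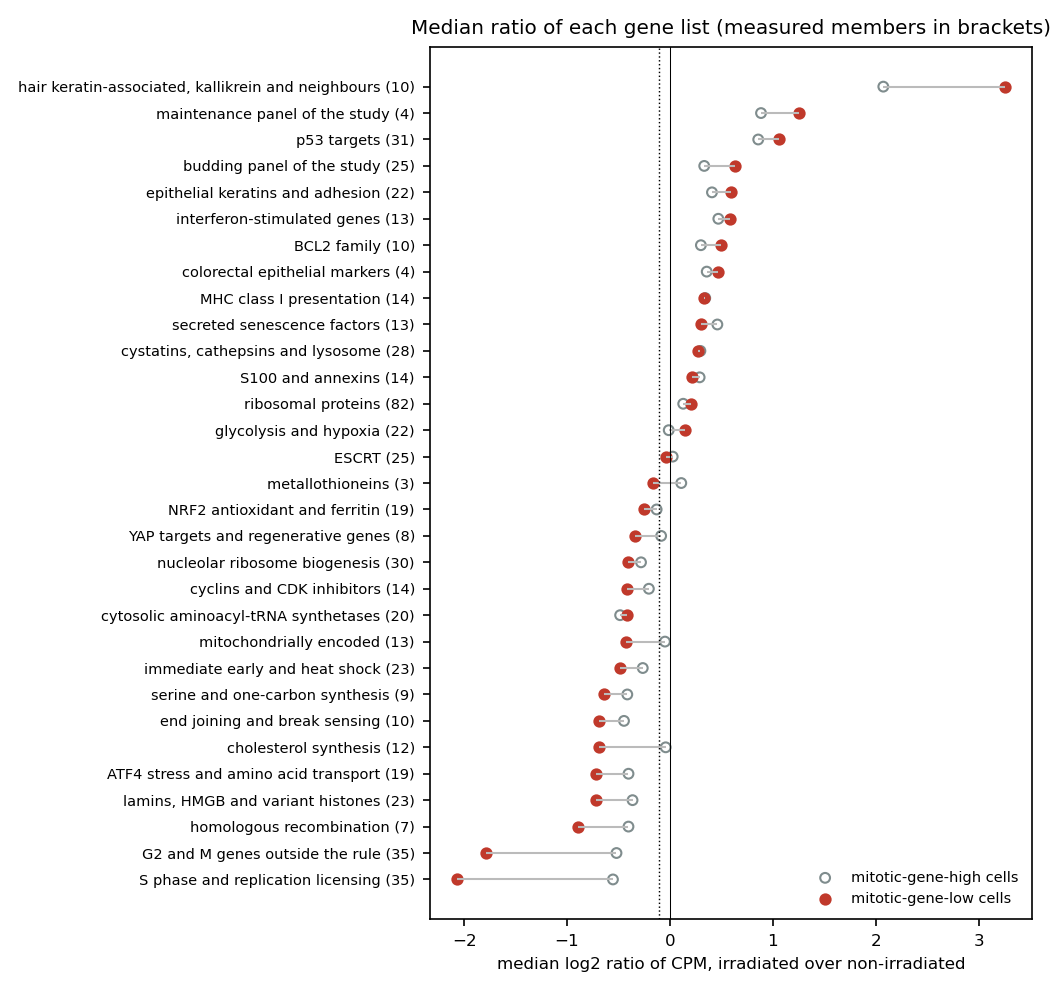
Median log2 ratio of CPM, irradiated over non-irradiated (x axis), over the measured members of each gene list (y axis, number of members in brackets) in mitotic-gene-low cells (filled) and mitotic-gene-high cells (open). The solid line marks 0 and the dotted line the median of all measured genes in mitotic-gene-low cells, −0.10. The hair keratin-associated and kallikrein list lies at 3.25 and the S phase list at −2.07 in mitotic-gene-low cells, and both lie nearer 0 in mitotic-gene-high cells.

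Cell by cell, the populations overlapped for every gene and list sum examined, to different degrees. In cells thinned to 5000 UMIs, CDKN1A had a median of 5 UMIs (0 to 52) in irradiated and 1 (0 to 11) in non-irradiated cells. CST3 had medians of 5 (0 to 21) and 1 (0 to 6). The summed p53 targets had a median of 29 UMIs (6 to 165) against 11 (3 to 40), and 97.8% of irradiated cells lay above the non-irradiated median, while 3 of 73 non-irradiated cells lay above the irradiated median. The summed S phase genes had medians of 5 (0 to 34) and 21 (2 to 52), and 9 irradiated cells exceeded the non-irradiated median. HMGB1 had medians of 2 and 12, and 9 irradiated cells again lay above the non-irradiated median. The ATF4 sums overlapped more, with medians of 6 and 8 and 21.5% of irradiated cells above the non-irradiated median. Interferon-stimulated genes reached 344 UMIs in an irradiated cell and 22 at most in a non-irradiated cell, with medians of 14 and 8. ISG15 alone reached 245 UMIs in 1 irradiated cell.

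**Figure D4:**
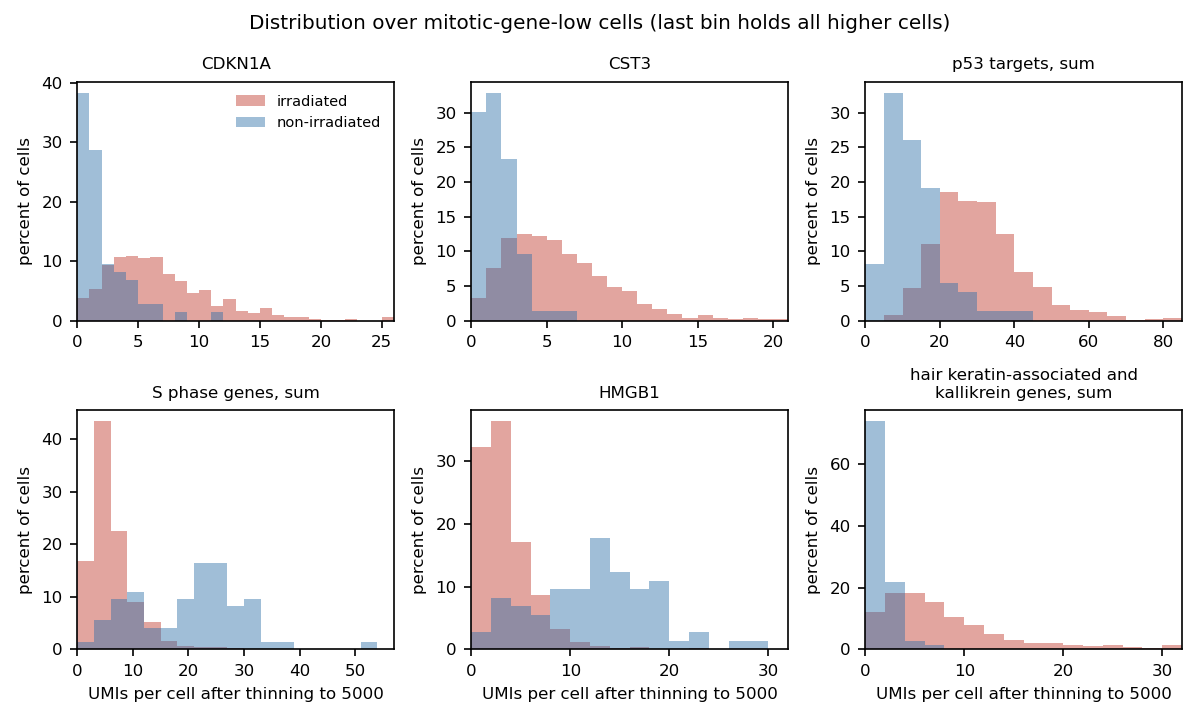
Distribution of UMIs per mitotic-gene-low cell after thinning each cell to 5000 UMIs (x axis) as a percent of cells (y axis), for 3 genes and the sums of 3 gene lists in 956 irradiated and 73 non-irradiated cells. The last bin holds all higher cells. The p53 sums have medians of 29 and 11 and the S phase sums medians of 5 and 21, and the populations overlap in each panel.

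Mitotic-gene-high cells, those with at least 4 UMIs over the 6 genes (948 irradiated and 625 non-irradiated), share no cell with the mitotic-gene-low cells. Among them 222 of 5143 genes (4.32%) were higher and 349 (6.79%) lower. Of the 689 genes higher in mitotic-gene-low cells 34.0% were also higher in mitotic-gene-high cells, and of the 1062 lower genes 20% were also lower. These shares are over the 4922 genes measured in mitotic-gene-low cells. Among the same 4922 genes 277 were higher in mitotic-gene-high cells, and 84.5% of them were also higher in mitotic-gene-low cells, while 237 were lower, and 89.5% of them were also lower. Over all 4922 genes 14% were higher and 21.6% lower in mitotic-gene-low cells. The expression limit was set on mitotic-gene-low levels, and a gene can pass it through 1 population alone. These shares therefore describe the genes and lend no support. No measured gene (0) was past the limit in opposite directions.

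CDKN1A gave 3.65 (3.40 to 3.92) in mitotic-gene-high cells, a log2 difference between the comparisons of 0.15 (−0.10 to 0.39), which included 0. GDF15 gave 2.57 and 2.56. CST3 gave 2.21 (2.08 to 2.35), a log2 difference of 0.79 (0.54 to 1.05), and KLK10 gave 4.54, a log2 difference of 1.61 (0.50 to 2.72). PHGDH gave 0.414, a log2 difference of −1.70 (−2.24 to −1.17). IFI6 was the reverse case, at 6.39 in mitotic-gene-high cells, with a log2 difference of −0.96 (−1.66 to −0.26). The p53 list had medians of 1.06 and 0.86 and the interferon list 0.59 and 0.47. The tRNA synthetase list had −0.42 and −0.48, and the S phase list −2.07 and −0.55. Cholesterol synthesis had −0.69 in mitotic-gene-low and −0.04 in mitotic-gene-high cells.

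Further populations of mitotic-gene-low cells were set against the same 73 non-irradiated cells, so these comparisons share their control. They were 854 weakly tagged irradiated cells, with tag8 under its limit, and 84 repopulated cells marked by tag7. Only the tag8 share places the weakly tagged cells with the irradiated ones. Before the filters 8850 barcodes were weakly tagged and 2722 over the tag8 limit, where 10000 irradiated cells had been pooled. Whether each weakly tagged cell had been irradiated was not tested. Repopulated cells had also been irradiated, with 8 Gy, and were taken later, after proliferation had resumed. In the weakly tagged cells 291 genes (5.87%) were higher and 317 (6.39%) lower, and in the repopulated cells 346 (7.11%) and 573 (11.8%). CDKN1A was at 1.98 in weakly tagged and 2.00 in repopulated cells. After thinning to equal depth, its median was 1 UMI in both and also in non-irradiated cells. Cells without a CDKN1A UMI made up 31.3% of weakly tagged, 35.7% of repopulated and 38.4% of non-irradiated cells. The highest counts were 35, 38 and 11 UMIs in the same order. The CDKN1A ratios of summed UMIs therefore do not describe the median cell. CST3 was at 1.72 in weakly tagged and 1.07 in repopulated cells, PHGDH at 0.374 and 0.637, and KRTAP3-1 at 2.57 and 1.05. The p53 list had medians of 0.68 and 0.17, and the S phase list −0.48 and −0.43. The ATF4 list had −0.28 in weakly tagged and −0.69 in repopulated cells, against −0.72 in the strongly tagged irradiated cells.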

How the data were processed

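The authors aligned reads to GRCh38 and counted UMIs with Cell Ranger (3.0.1 per the file headers of Mix2). The submitters' processing notes also name mm10 and Seurat 2.3. The deposited values were raw UMI counts per gene and barcode for 33538 genes and 3 hashtags. The unfiltered deposited counts of Mix2 (6794880 barcodes) had 0 differing entries over the 13888 cell barcodes and served only as the source of free RNA, taken from droplets with at most 100 gene UMIs. Mix1 was not compared. Of the Mix2 barcodes 59 (0.425%) also occurred in Mix1.

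Counts were summed per population and scaled to CPM with Python 3.11.15, numpy 2.4.6 and pandas 2.3.3. Exact conditional binomial, Poisson and Clopper-Pearson 95% intervals (scipy 1.17.1) cover counting error only. So do the 95% intervals of log2 differences, which were normal approximations. UMIs count molecules, but cells of 1 sample are not independent replicates. A gene was measured at a mean of 20 CPM and called at 1.5-fold. Hashtag limits came with the definition of the populations. Droplets in which other tags exceeded 20% were left out, and droplets holding several cells of the same tag could not be recognised below the cap of 20000 UMIs. Per-cell values were thinned to 5000 UMIs. Named genes were CDKN1A, CST3 and PHGDH, the 6 genes of the limit, the 10 highest and 10 lowest ratios at a mean of 50 CPM, and from each list at most 4 members with the most extreme ratios, beside members needed for the roles it holds. Any other named gene was chosen after its values were seen. The populations and the 36 gene lists were chosen with earlier results of these data known. Alternatives changed the mitotic, hashtag, UMI and mitochondrial limits, depth, scaling (TMM of edgeR 4.0.16 in R 4.3.3), free RNA, gene filter and call rule. The ratio method was tested on simulated data. Promoters were from RefSeq GRCh38.p14, which matched 3985 of 4922 measured genes, with 4 motifs searched on both strands in 4 lists, where matches of different motifs overlapped 1 time. Gene positions were from GENCODE 44.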

Additional observations from a re-analysis of the deposited data

Results flagged for a closer look

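Among measured genes past 1.5-fold in mitotic-gene-low cells, 5 lay on the other side of equality in mitotic-gene-high cells, with both counting intervals excluding equality. The difference was not tested over samples. MT-ATP6, a subunit of ATP synthase encoded in mitochondrial DNA, stood at 1956 CPM in irradiated and 3355 CPM in non-irradiated mitotic-gene-low cells (0.583, 0.555 to 0.613) and at a ratio of 1.04 (1.02 to 1.06) in mitotic-gene-high cells. TK2, the mitochondrial thymidine kinase, gave 2.24 (1.17 to 4.94) and 0.832 (0.700 to 0.992). DNAJC1 gave 0.600 (0.392 to 0.963) and 1.21 (1.02 to 1.45), SNRNP25 0.614 (0.437 to 0.887) and 1.15 (1.01 to 1.32), and DPYSL2 0.661 (0.479 to 0.935) and 1.14 (1.003 to 1.29).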

How the results depend on the processing

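Of 125 named genes past 1.5-fold, 70 stayed past it under each alternative that gave a value and 15 changed direction under at least 1. The 14 lists with a median past 1.5-fold each kept its sign under the 16 alternatives with values for lists, but 10 came inside 1.5-fold under at least 1, and 4 (S phase, G2 and M, hair keratin-associated and kallikrein, first panel) did not. The log2 medians nearest 0 were 0.27 for p53 targets and −0.20 for lamins, HMGB and histones (95% tag share), 0.28 for interferon (8000 to 14000 UMIs), 0.11 for epithelial genes (under 5% mitochondrial UMIs) and 0.42 for the budding panel (at most 1 mitotic UMI after thinning). At the 80% share they were −0.42 for serine, −0.31 for ATF4 and −0.55 for homologous recombination, and without mitochondrial and ribosomal genes −0.36 for end joining and −0.30 for cholesterol. TMM scaling moved the median of all measured genes from −0.10 to 0.06. It gave 979 higher and 741 lower genes, against 689 and 1062 as reported, so the excess of lower genes depended on the scaling. The non-irradiated side held 8 cells at 0 mitotic UMIs, 6 at a 95% tag share, 12 at 8000 to 14000 UMIs and 8 under 5% mitochondrial UMIs.

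CDKN1A moved to 3.15 at 0 mitotic UMIs, 3.14 at an 80% tag share without count limits, 1.61 at a 95% share, 1.95 at 8000 to 14000 UMIs, 17.5 under 5% mitochondrial UMIs and 5.34 at 5000 to 8000 UMIs, a window added after the data were seen. CST3 moved to 3.01 at the 80% share, 7.84 under 5% mitochondrial UMIs and 4.69 with free RNA subtracted at 10%. PHGDH moved to 0.445 at 0 mitotic UMIs and 0.220 at the 80% share. Higher and lower genes numbered 1066 and 1719 at 0 mitotic UMIs, 1091 and 1915 at a 95% share, 2247 and 3423 without a gene filter, and 309 and 510 at a mean of 50 CPM. Lower genes numbered 1969 under 5% mitochondrial UMIs, and higher genes 1083 without mitochondrial and ribosomal genes.

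At 0 mitotic UMIs LCN2 (0.918), IFI6 (0.867), SERTAD1 (0.865), TSPAN1 (0.969), NOP58 (1.49) and RPA2 (1.56) reversed. At a 95% share BAX (0.989), BCL2L1 (0.883), TAP1 (0.752), EPCAM (1.03) and H2AFX (1.20) did. At 8000 to 14000 UMIs GINS2 (1.29), MKI67 (1.62), H2AFX (1.23) and NOP58 (1.03) did, and under 5% mitochondrial UMIs GRN (0.833) and JUP (0.902). The cause was not tested. Leaving out the non-irradiated cell with most UPP1 UMIs, also added after the data were seen, moved UPP1 from 0.0787 to 0.359. No paired analysis was possible because each population was 1 sample.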
